A study of Mus musculus with 168 samples.

Results

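The 4 microRNA loci described here, Mir9-2, Mir9-3, Mir124a-1 and Mir124a-3, are the rows of the cortex small RNA count table whose Ensembl transcript carries 1 of these gene names in the GENCODE annotation of GRCm38. They are 4 of the 1626 transcripts in the table. The libraries came from the cortex of 168 mice of 7 genotypes at 2, 6 and 10 months of age, with 8 mice, 4 female and 4 male by cage (by label where no cage is named), per genotype and age. The Q20, Q80, Q92, Q111, Q140 and Q175 mice were heterozygous for an Htt allele with a knocked-in human HTT exon 1 of the named CAG repeat length and kept a wild type Htt allele, and the WT mice were littermates of the Q20 line with a CAG length of 7. Q20 and WT mice served as controls at 2 and 10 months. At each of these ages the 16 controls came from 2 cages, 1 per sex, that held both genotypes, while each mutant line had cages of its own, so that line and cage cannot be told apart and p-values measure the spread between mice of these few cages. At 6 months Q20 mice alone did, because the 8 libraries labelled as 6-month WT mice differ from all other 6-month libraries in the form of their library names and are not listed for the cortex in the study's methods. Their values are shown apart. The 6-month Q20 libraries were in lanes 3 and 4, which of the mutant lines only Q111 shared, in its female mice. Mutant line and lane thus cannot be told apart at 6 months for the other lines, and no fit with lane was made at that age.

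miR-9 and miR-124 are among the most abundant microRNAs of the mammalian brain. Both promote the passage of neural progenitors to neurons, in part by lowering components of the REST repressor complex and by exchanging subunits of a chromatin remodelling complex, and REST in turn represses their genes outside the neuronal lineage. Wild type huntingtin is known to hold REST in the cytoplasm of neurons, so that genes under REST are of interest in Huntington's disease models. Each of the 2 mature microRNAs is encoded at several places in the genome, and the precursors cut from these loci release the same mature molecule.

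Both Mir9 loci release miR-9-5p, the main product, and miR-9-3p, from the opposite arms of a hairpin. They are shown because the mature forms cannot be told apart by sequence, while the rest of the hairpins can. The sequences are those of RefSeq on GRCm38.p6, with the seed (bases 2 to 8) of each mature form in capitals.
miR-9-5p: uCUUUGGUuaucuagcuguauga
miR-9-3p: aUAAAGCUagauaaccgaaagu
In the hairpins the capitals mark both mature forms.
Mir9-2: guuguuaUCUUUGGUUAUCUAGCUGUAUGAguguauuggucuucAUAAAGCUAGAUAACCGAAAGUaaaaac
Mir9-3: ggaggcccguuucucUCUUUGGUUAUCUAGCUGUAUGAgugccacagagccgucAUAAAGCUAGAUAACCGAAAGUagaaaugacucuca
Over an alignment of 90 positions the hairpins were identical at 64 (71.1%). The mature forms were identical at all 23 and 22 bases, and the identical stretch around them ran to 26 bases for miR-9-5p and 25 bases for miR-9-3p. Of 1679 mature mouse microRNA names, no other shared either seed, and 3 genes (Mir9-1, Mir9-2 and Mir9-3) carry them.

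Mir9-2 (transcript ENSMUST00000083490) lies on the plus strand of GRCm38 at chr13:83738814-83738885, over an exon of the long noncoding RNA C130071C03Rik. Mir9-3 (ENSMUST00000175497) lies on the plus strand at chr7:79505264-79505353, in an intron of its host gene Mir9-3hg. Mir124a-1 (ENSMUST00000083663) lies on the plus strand at chr14:64590657-64590741, over an exon of its host gene Mir124a-1hg. Mir124a-3 (ENSMUST00000083520) lies on the plus strand at chr2:180894040-180894107 and overlaps the start of the noncoding gene Gm27032, which begins at 180894105 on the same strand.

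The deposited values are estimated counts, and nearly all values of these loci are not whole numbers. The value of Mir9-2 was not whole in 167 of 168 libraries (99.4%), that of Mir9-3 in 168 of 168 (100%), that of Mir124a-1 in 167 of 168 (99.4%) and that of Mir124a-3 in 168 of 168 (100%). Over all transcripts, 48.1% of the values above 0 were not whole, and over the microRNAs tested 23.8%. The fractions of each family were found to close with 1 more row of the table. Mir9-2 and Mir9-3 together came within 0.05 of a whole number in 14 libraries, and with Gm25641 (chr3:88215589-88215696, minus strand) in 168 of 168. No other of the 1624 transcripts that could be added did so in more than 27 libraries. Gm25641 lies opposite Mir9-1 (chr3:88215598-88215686, plus strand), which has no row and was not analysed here. Likewise, Mir124a-1 and Mir124a-3 together were whole in 9 libraries, and with Mir124a-2 (chr3:17795662-17795770, plus strand) in 168 of 168, against at most 26 for any other transcript.

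Reads of a family were therefore divided among 3 rows, and very unevenly. Mir9-2 held between 97.4% and 98.6% of the family sum in every library (median 98.2%), Mir9-3 between 0.870% and 2.43% (median 1.54%) and Gm25641 between 0.0939% and 0.580%. Mir124a-1 held between 96.6% and 99.2% (median 98.5%), Mir124a-3 between 0.778% and 3.25% and Mir124a-2 between 0.0469% and 0.401%. The level of a minor locus is thus a small share of a large family sum, and how the reads were divided is not given in the sources used here. Each result below is given for the 4 loci and, where it bears on a call, for the sum of the 3 rows of a family, which holds whole reads.

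**Figure D1:**
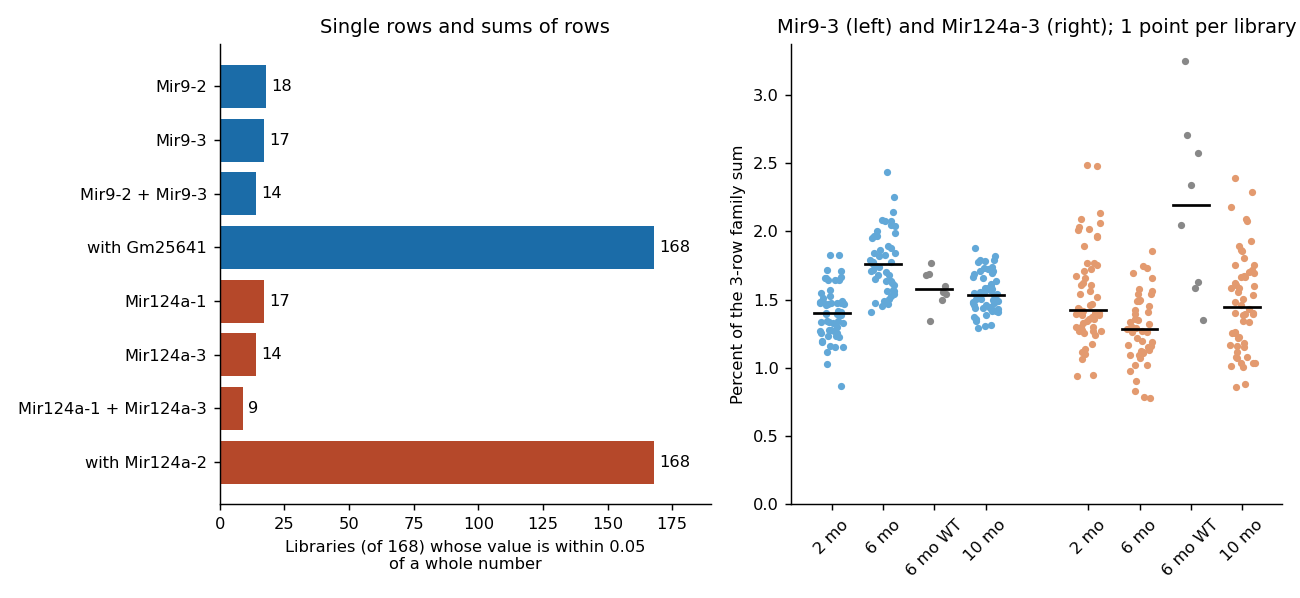
Left, bars give the number of libraries, of 168, in which a row or a sum of rows was within 0.05 of a whole number; both families reach 168 only with the sum of 3 rows. Right, each point is the percent of the 3-row family sum held by Mir9-3 or Mir124a-3 in 1 library by age in months (mo), with the 6-month WT libraries in grey and lines at medians; all points lie between 0.778% and 3.25%.

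The order of the loci was the same in every library. By the deposited FPKM, a level per length of transcript, Mir9-2 was highest, followed by Mir124a-1, Mir9-3 and Mir124a-3 in 168 of 168 libraries. The FPKM of Mir9-2 was a median of 5.21 times that of Mir124a-1 (range 2.75 to 15.8), that of Mir124a-1 13 times that of Mir9-3 (4.80 to 24.9), and that of Mir9-3 5.23 times that of Mir124a-3 (2.38 to 12.6). The lengths that the FPKM imply are 87 nt for Mir9-2 and Mir124a-3, longer than the 72 and 68 nt of the annotation, and 85 and 90 nt for Mir124a-1 and Mir9-3, as annotated, so the ratios rest on those lengths. Mir9-2 alone took a median of 3.91% of all counts of a library and ranked between place 4 and place 9 of all transcripts, and Mir124a-1 took 0.741% and ranked between places 21 and 47. The 4 loci together took 3.79% to 7.01% of a library. Counts ran from 243 for Mir124a-3 in its lowest library to 458015 for Mir9-2 in its highest. They are shares of divided reads, and the error of that division was not estimated.

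Library totals ranged from 2041741 to 11646287 counts. The labelled tissue was checked against microRNAs enriched in cell types. All 15 neuron-enriched microRNAs listed were measured, 2 of 3 for oligodendrocytes, 5 of 10 for microglia and blood cells, 3 of 3 for vessels and 4 of 4 for choroid plexus, and none of those measured had a median of 0. Mir122, which defines liver, had a median between 1.004 and 6.95 CPM in the control, Q175 and 6-month WT groups. In 7 libraries (Q111 at 2 months, F3, and at 10 months, M1, Q140 at 10 months, F2, Q20 at 2 months, M2, and at 10 months, F1 and M2, and Q92 at 2 months, F1) the standardized connectivity used for outlier removal in the methods was under -5, and the results below were also computed without them. In whole cortex, fewer cells of a type and less RNA per cell cannot be told apart.

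Levels across groups are given as CPM, the counts scaled to a common library total after TMM normalization, which divides each count by an effective library size. Mir9-2 had a group median between 35369 (Q20) and 40472 (Q92) CPM at 2 months, between 30199 (Q80) and 35026 (Q111) CPM at 6 months and between 40341 (WT) and 42211 (Q92) CPM at 10 months. The medians of Mir9-3 lay between 497 (WT) and 576 (Q92) CPM at 2 months, 535 (Q140) and 639 (Q111) CPM at 6 months and 623 (Q140) and 664 (Q20) CPM at 10 months. Of the 3 ages, the group medians of both Mir9 loci thus lay closest together at 10 months, which was not tested. The highest medians of 6 months were those of Q111, whose male libraries carry another library code (V) than the Q20 libraries. With this code as a covariate Q111 did not lie above Q20, at log2 differences of -0.04 for Mir9-2 and -0.14 for Mir9-3.

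Mir124a-1 had group medians between 5965 (Q92) and 7518 (Q175) CPM at 2 months, 8942 (Q175) and 10027 (Q92) CPM at 6 months and 6007 (Q175) and 6850 (Q80) CPM at 10 months. The medians of Mir124a-3 lay between 98.1 (WT) and 113 (Q140) CPM at 2 months, 114 (Q20) and 139 (Q111) CPM at 6 months and 72.8 (Q175) and 109 (WT) CPM at 10 months. Ordered by mean over the 20 groups without the 6-month WT mice, neighbouring groups differed by more than their pooled SD in 0 of 19 pairs for Mir9-2, Mir9-3 and Mir124a-3 and in 1 of 19 pairs for Mir124a-1. Neighbours in such an order lie close by construction, so these counts say nothing of groups further apart. The 6-month libraries of Q20 and the longer repeats had the lowest Mir9-2 and the highest Mir124a-1 medians. Age and the sequencing of that series cannot be told apart there, so 6 months was not compared with the other ages.

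The 6-month WT libraries stood apart from the other 6-month libraries in both families. Mir9-2 was at 36278, 59184 and 85749 CPM (lowest, median and highest of 8) in them, against 29385, 32646 and 36736 CPM in the 8 Q20 mice of that age. Mir9-3 was at 655.7, 978 and 1170 CPM against 503, 571 and 734 CPM. In both cases all 8 WT libraries were above the Q20 median, and the ranges overlapped. Mir124a-1 was at 4917, 5380 and 7688 CPM in the 6-month WT libraries against 9006, 9660 and 10446 CPM in Q20, with no overlap. Mir124a-3 was at 79.2, 118 and 183 CPM against 100.1, 114 and 133 CPM, with 4 WT libraries above and 4 below the Q20 median. The summed Mir124a loci came to a median of 8.85% of the summed Mir9 loci in the 6-month WT libraries and to 29.4% in the 6-month Q20 libraries. Genotype and library series cannot be told apart in this pair of groups, and no test was made. In the 2- and 10-month WT libraries the same ratio had medians of 18.8% and 16.2%.

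**Figure D2:**
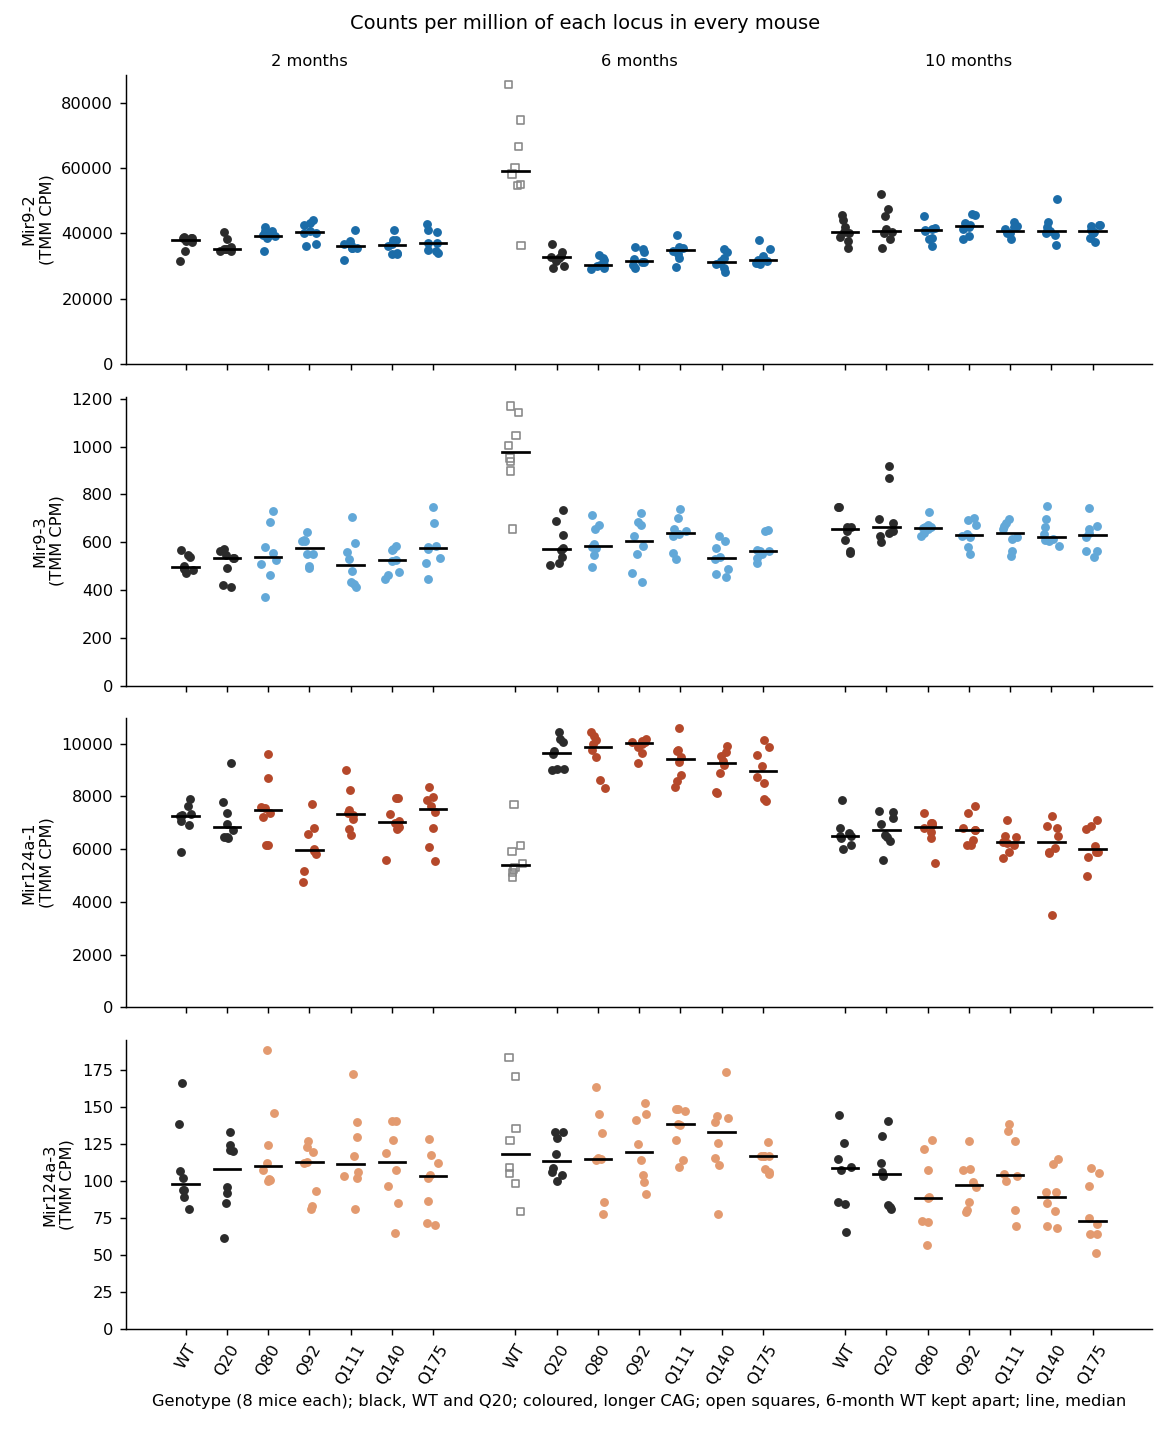
Each point is the TMM-normalized CPM (vertical axis from 0) of a locus in 1 mouse, by genotype within 2, 6 and 10 months, with WT and Q20 mice in black, longer repeats in colour, 6-month WT mice as open squares and lines at medians. Most open squares lie above the other 6-month mice for both Mir9 loci, and all lie below them for Mir124a-1.

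The first question was whether the loci differ between mice with long CAG repeats and controls of the same age. Q175, the line with the longest repeat, gave the largest number of changed microRNAs, and of the 4 loci only Mir124a-3 at 10 months passed FDR 0.05 in it, by a small margin. At 10 months Mir124a-3 was at 65.9, 107 and 145 CPM (lowest, median and highest) in the 16 controls and at 51.4, 72.8 and 109 CPM in the 8 Q175 mice. 7 of the 8 Q175 mice were below the control median, and the ranges overlapped. The log2 difference was -0.42 with an SE of 0.14 (adjusted p = 0.0468, quasi-likelihood F test of edgeR). In that comparison 39 of 328 microRNAs (11.9%) passed, 6.71% in the falling direction, against which 1 of 4 loci is to be read.

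The other 3 loci did not pass in 10-month Q175 mice. Mir9-2 was at 35468, 40469 and 52083 CPM in controls and at 37284, 40819 and 42605 CPM in Q175, with a log2 difference of -0.05 (95% interval -0.16 to 0.06). Mir9-3 was at 556, 655.9 and 920 CPM and at 537, 629 and 741 CPM, with a log2 difference of -0.14 (-0.29 to 0.01). The groups overlapped over most of their range for both. Mir124a-1 was at 5571, 6502 and 7842 CPM in controls and at 4978, 6007 and 7110 CPM in Q175, with a log2 difference of -0.13 (-0.26 to -0.01, adjusted p = 0.183). The family sums moved little, by -0.05 for Mir9 (-0.16 to 0.06) and by -0.13 for Mir124a (-0.25 to -0.01, adjusted p = 0.177), the 3 rows of a family summed. The value of the Mir124a sum follows Mir124a-1, since Mir124a-3 is a small share of it.

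The call of Mir124a-3 was lost when all transcripts or all annotated microRNAs were tested (adjusted p from edgeR = 0.166 and 0.116), with the sex of the labels (0.0555), without the outlying libraries (0.0628), with Q20 mice as the only controls (0.0698) and without the Q20 library of the lowest total (M2, 0.0671), while the log2 difference stayed between -0.44 and -0.41 in these 6 settings. Choroid plexus microRNAs differed between the same groups. Mir448, Mir1298 and Mir204 fell in 10-month Q175 mice by 1.52, 1.39 and 0.72 on the log2 scale (adjusted p = 0.016, 0.0371 and 0.0391), and the sum of the 4 listed was 2570 to 12520 CPM in controls and 2631 to 3367 CPM in Q175. Their part in the result was not tested.

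In the 14 other comparisons of a genotype with its controls, 0 of 56 tests of the loci passed FDR 0.05 with edgeR, 9 had an unadjusted p under 0.05, and DESeq2 called 1 (Mir124a-1 in Q92 at 2 months). The share of all microRNAs called in these comparisons was 1.22% for Q92 at 2 months, 0.31% for Q92 at 6 months, 0.92% for Q175 at 6 months and 0% for the others. The log2 differences of the loci ran from -0.25 to 0.24. The smallest adjusted p, 0.0981, was that of Mir9-2 in Q92 at 2 months, at 36116, 40472 and 44016 CPM against 31552, 36585 and 40526 CPM in controls (log2 difference 0.15, SE 0.04). Mir124a-1 in the same mice was at 4752, 5965 and 7702 CPM against 5886, 7157 and 9255 CPM (log2 difference -0.23, SE 0.07, adjusted p = 0.105). The Mir9 locus was thus higher and the Mir124a locus lower in these mice, neither past the threshold of edgeR, and DESeq2 gave the latter an adjusted p of 0.0439.

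In Q175 mice at 2 months Mir9-3 was at 447, 575 and 747 CPM against 414, 517 and 571 CPM in controls, a log2 difference of 0.20 (SE 0.07, adjusted p = 0.582). At 6 months it was at 512, 563 and 651.99 CPM against 503, 571 and 734 CPM in Q20 mice, a log2 difference of -0.09 (SE 0.08). Its sign thus turned between 2 months and the later ages, with no single difference past the threshold. The log2 differences of Mir9-2 were 0.06 and -0.01 at 2 and 6 months, those of Mir124a-1 were 0.01 and -0.06, and those of Mir124a-3 were -0.09 and -0.08.

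The second question was whether the loci are associated with CAG length as a numeric variable. No locus passed FDR 0.05 at a single age with edgeR or with DESeq2, where edgeR called 0% of the microRNAs at 2 months, 1.22% at 6 months and 8.21% at 10 months. An unadjusted p under 0.05 was found for 0 loci at 2 months, for Mir9-3 and Mir124a-1 at 6 months and for Mir9-3, Mir124a-1 and Mir124a-3 at 10 months. With the sequencing lane as a further covariate Mir9-3 passed at 10 months (-0.11, adjusted p = 0.0342). The log2 change of Mir9-3 per 100 CAG was 0.08 (SE 0.05) at 2 months, -0.12 (SE 0.05) at 6 months and -0.08 (SE 0.03) at 10 months. That of Mir124a-1 was 0.00 (SE 0.05), -0.05 (SE 0.02) and -0.09 (SE 0.04). Mir124a-3 changed by -0.02 (SE 0.08), -0.01 (SE 0.08) and -0.21 (SE 0.08, adjusted p = 0.0815). Mir9-2, which holds nearly all reads of its family, had the smallest changes at 10 months, at -0.02 (SE 0.03).

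When the Z statistics of 6 and 10 months were combined, Mir9-3 (Z = -3.20, adjusted p = 0.0146) and Mir124a-1 (Z = -3.17, adjusted p = 0.0156) passed FDR 0.05, both falling with Q. In the 6-month part, most mutant lines shared no lane with the Q20 controls, so line and lane cannot be told apart there. In this meta-analysis 38 of 328 microRNAs (11.6%) passed, with 6.4% called in the falling direction. Mir124a-3 had a Z of -1.91 (adjusted p = 0.194) and Mir9-2 a Z of -1.06 (adjusted p = 0.539). For the family sums the Z was -0.54 for Mir9 (adjusted p = 0.781) and -2.66 for Mir124a (adjusted p = 0.0534). The call for Mir9 therefore belongs to the row with 1.54% of the family's reads. It was not found in the sum of the 3 rows, and that for Mir124a fell just short in the sum. The sums came from a separate fit, in which the 6-month log2 changes with CAG length were less negative in both families. They were -0.034 for the Mir124a sum and -0.053 for Mir124a-1, and -0.008 for the Mir9 sum and -0.025 for Mir9-2. Mir124a-1 holds nearly all reads of its family. Whether its call was lost through the summed reads or through the new fit was not tested.

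Both calls of the meta-analysis were lost without the Q175 mice, where 3 microRNAs passed in place of 38. The Z of Mir9-3 was then -2.50 (adjusted p = 0.270) and that of Mir124a-1 -1.68 (adjusted p = 0.575). The call of Mir9-3 was also lost without the outlying libraries (Z = -2.63, adjusted p = 0.0532) and without the library code as a covariate at 6 months (Z = -2.60, adjusted p = 0.0622). Adding the WT libraries of 6 months to the controls, the Z of Mir124a-1 turned to 0.71 and Mir9-2 passed (Z = -3.75, adjusted p = 0.00156), as those libraries stand apart in both loci.

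**Figure D3:**
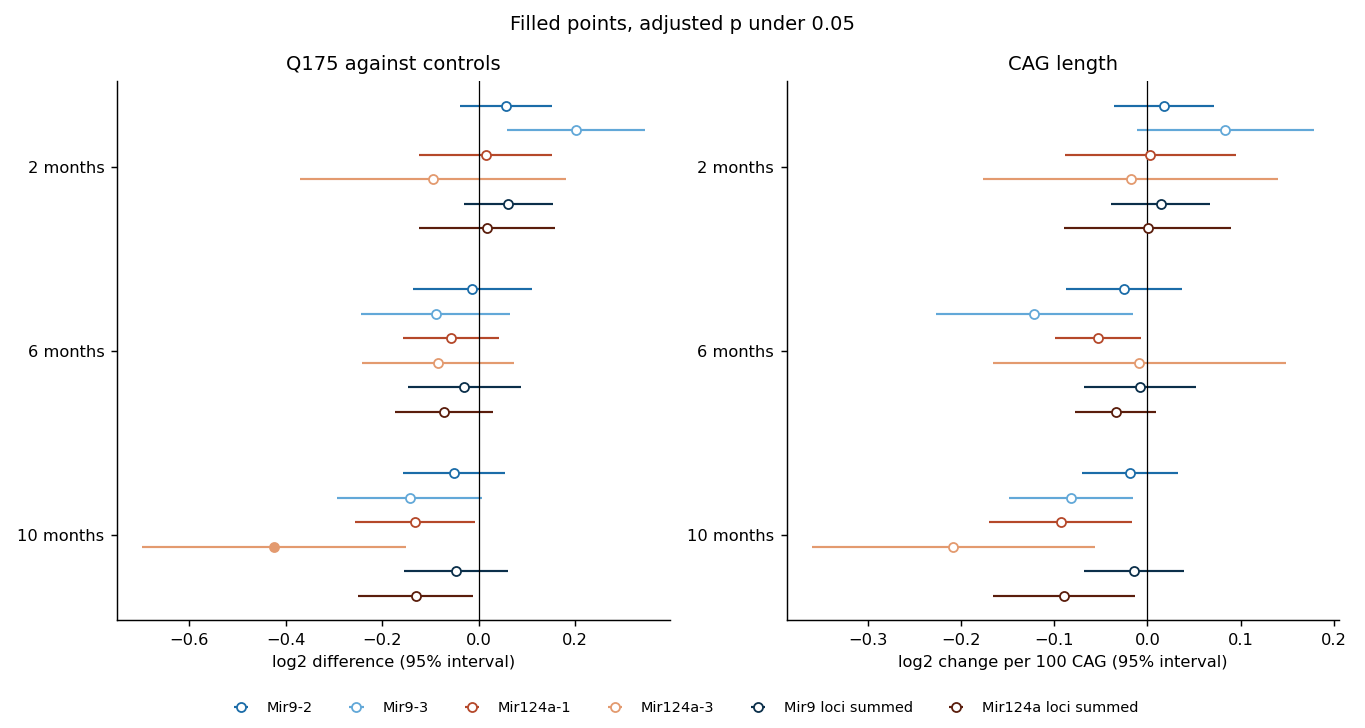
Points are the log2 difference of Q175 mice from controls (left) and the log2 change per 100 CAG (right) for the 4 loci and the sums of the 3 rows of each family at 2, 6 and 10 months, with 95% intervals and filled where the adjusted p was under 0.05. Mir124a-3 in Q175 at 10 months (-0.42) is the filled point, and the Mir9 sum lies near 0 throughout.

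Of 15 neuron-enriched microRNAs, 0 rose and 4 fell in Q175 mice at 10 months, with a median log2 difference of -0.10 against -0.01 over all microRNAs tested, of which 11.9% were called and 6.71% fell. Mir212 and Mir132, a cluster induced by neuronal activity, fell by 0.36 each (SE 0.06 and 0.06) and Mir128-2, which regulates neuronal excitability, by 0.20 (SE 0.04). Of 8 REST-linked microRNAs, which include Mir132 and Mir212, 0 rose and 3 fell, with a median of -0.07. Mir135b fell furthest, by 0.60 (SE 0.07, adjusted p = 1.02e-06). The fall of Mir135b per 100 CAG at 10 months was 0.32 on the log2 scale, beside a log2 change of -0.02 for Mir9-2 and -0.09 for Mir124a-1, neither past the threshold. Both lists were chosen with earlier results of these data known, so their counts are a description only.

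The third question was how the loci differ with age. In controls both Mir9 loci were higher at 10 than at 2 months, and neither Mir124a locus passed the test. All 2-month libraries belong to 1 run of library numbers and all 10-month libraries to another, sequenced mostly in other lanes, with TMM factors of 0.996 to 1.093 (median 1.05) and 0.949 to 1.075 (median 1.0055). Age, cage and library series cannot be told apart in this comparison. Mir9-2 was at 31552, 36585 and 40526 CPM at 2 months and at 35468, 40469 and 52083 CPM at 10 months in 16 mice each, with 14 of 16 mice above the 2-month median. The log2 difference was 0.18 (SE 0.04, adjusted p = 0.000682). Mir9-3 was at 414, 517 and 571 CPM at 2 months and at 556, 655.9 and 920 CPM at 10 months, with 16 of 16 mice above the 2-month median and a slight overlap of the ranges. Its log2 difference was 0.41 (SE 0.06, adjusted p = 9.11e-07). Of all microRNAs, 158 of 329 (48%) passed in this comparison. The Mir9 sum rose by 0.18 (SE 0.04, adjusted p = 0.000643), as Mir9-2 did.

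Mir124a-1 was at 5886, 7157 and 9255 CPM at 2 months and at 5571, 6502 and 7842 CPM at 10 months in controls, with 12 of 16 mice below the 2-month median. The log2 difference was -0.10 (SE 0.05, adjusted p = 0.0994), and it passed when libraries were scaled by their total alone (-0.15, adjusted p = 0.0196). Mir124a-3 differed by -0.02 (95% interval -0.25 to 0.21), a range that leaves room for a change of the size seen in Mir9-2. Among the neuron-enriched microRNAs 7 of 15 were higher at 10 months in controls and 0 lower. The share called in either direction was thus close to the 48% of all microRNAs, for which the share called higher is not given here. Mir137, Mir129-1 and Mir218-2 had log2 differences of 0.14, 0.19 and 0.19, close to that of Mir9-2. Of the oligodendrocyte microRNAs Mir219a-2, a promoter of myelination, rose by 0.44 (SE 0.04). Markers of other cells moved as well. Of the vessel microRNAs Mir143 fell by 0.46 (SE 0.08), and the sum of the 3 listed was 17559, 23312 and 25412 CPM at 2 months and 16449, 17682 and 23481 CPM at 10 months. Of the choroid plexus microRNAs Mir211 fell by 0.96 (SE 0.14), with the 3 others not called. Of the 5 measured for microglia and blood cells Mir155 (0.46) and Mir144 (0.27) rose and Mir146 (-0.29) fell. Their part in the differences of the loci was not tested.

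In mutant mice the same age comparison gave log2 differences of Mir9-3 that passed for Q80 (0.30), Q111 (0.28) and Q140 (0.33) and did not for Q92 (0.16) or Q175 (0.10). Mir9-2 passed in Q111 (0.17) and Q140 (0.21) and not in Q80 (0.07), Q92 (0.07) or Q175 (0.11). Of the 4 loci, then, the Q80 mice had 1 called against 30.4% of all microRNAs, Q92 mice 0 against 35.5%, Q111 mice 3 against 33.7%, Q140 mice 2 against 37.4% and Q175 mice 1 against 39.8%. In Q92 the unadjusted p was under 0.05 for 1 locus, Mir9-3, which DESeq2 called. Of the 5 calls of the Mir9 loci in mutant lines, 4 were lost with libraries scaled by their total alone and that of Mir9-3 in Q140 was kept (0.23, adjusted p = 0.0147). Mir9-3 in Q80 (0.23) and Q111 (0.20) and Mir9-2 in Q111 (0.10) and Q140 (0.11) no longer passed with that scaling, Mir9-2 in Q80 turned to just under 0, and Mir124a-1 in Q140 passed (-0.30, adjusted p = 0.0382). In controls both Mir9 loci passed with it too, at 0.14 and 0.37.

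Mir124a-1 fell with age in Q111 (log2 difference -0.25, SE 0.06, adjusted p = 0.00435) and in Q175 (-0.22, SE 0.09, adjusted p = 0.0482). In Q111 mice it was at 6535, 7333 and 8995 CPM at 2 months and at 5646, 6256 and 7115 CPM at 10 months. In Q175 mice it was at 5543, 7518 and 8346 CPM and at 4978, 6007 and 7110 CPM. All 8 of the 10-month mice were below the 2-month median in both lines. The call in Q175 was lost with all transcripts or all annotated microRNAs as features (adjusted p = 0.116 and 0.114), as was that of Mir9-3 in Q111 (0.124 and 0.0868). In Q92, where the 2-month level was low, the difference was 0.15 (SE 0.08) in the other direction and did not pass.

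Whether the age difference depends on CAG length was tested over all 7 genotypes of 2 and 10 months. No locus passed with edgeR or DESeq2, where 1.22% of all microRNAs did. The age difference of Mir9-3 was smaller by 0.15 on the log2 scale per 100 CAG (SE 0.06, unadjusted p = 0.0138, adjusted p = 0.182), and those of Mir9-2 (-0.02), Mir124a-1 (-0.08) and Mir124a-3 (-0.17) had larger p-values. The slope of Mir9-3 thus did not pass after adjustment over all microRNAs. Its age difference in controls was not tested directly against that in Q175 mice.

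**Figure D4:**
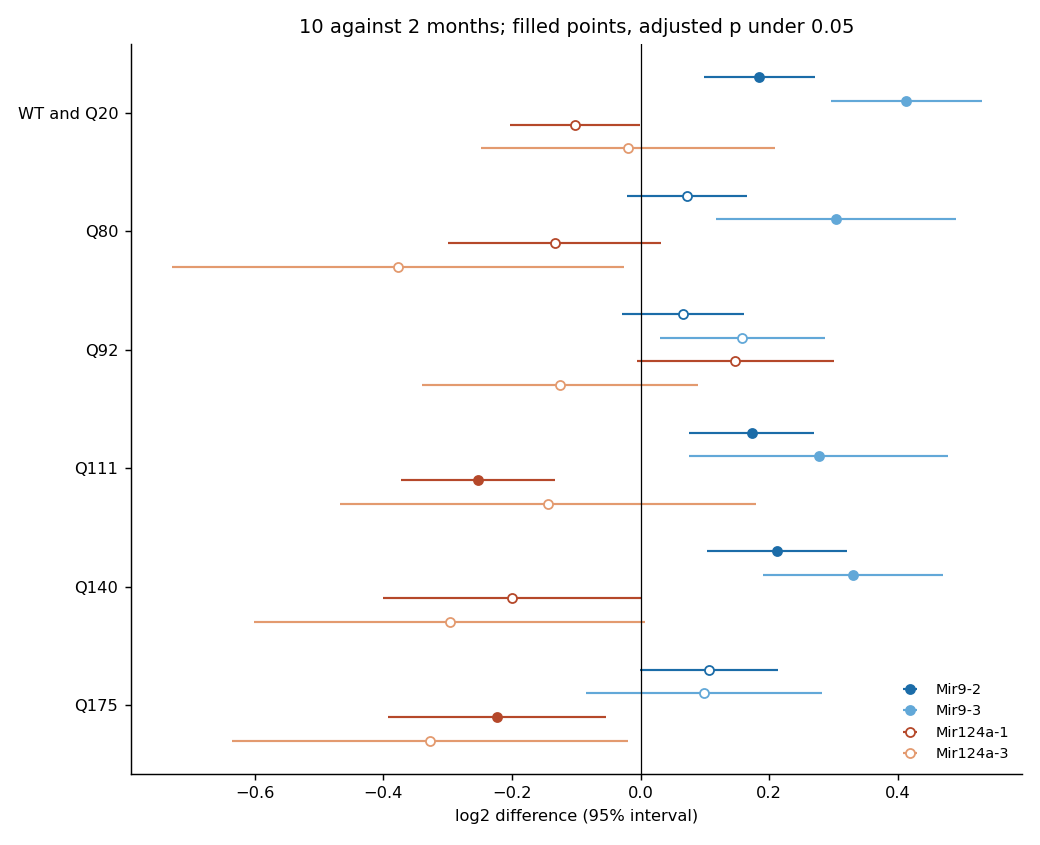
Points are the log2 difference of 10-month from 2-month mice for each locus in controls (WT and Q20) and in each mutant line, with 95% intervals and filled where the adjusted p was under 0.05. The Mir9 loci lie to the right of 0 in all 6 comparisons, with Mir9-3 at 0.41 in controls and 0.10 in Q175.

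A ratio of loci within a library does not depend on normalization, and 12 such comparisons were made by two-sided permutation tests over mice. The count of Mir9-3 was 1.04%, 1.43% and 1.70% (lowest, median and highest) of that of Mir9-2 in 2-month controls and 1.34%, 1.62% and 1.86% in 10-month controls. The mean log2 ratio was higher by 0.23 (SE 0.06, permutation p = 0.00054, adjusted p = 0.00648), with 14 of 16 mice above the 2-month median. The estimated count of Mir9-3 thus rose more with age in controls than that of Mir9-2. Whether the division of reads differed between the 2 library series was not tested. In mutant lines the medians at 2 and 10 months were 1.43% and 1.66% in Q80 and 1.39% and 1.47% in Q92. They were 1.33% and 1.55% in Q111, 1.42% and 1.49% in Q140 and 1.61% and 1.51% in Q175, with no test made. The summed Mir124a loci were 15.3%, 18.9% and 26.6% of the summed Mir9 loci in 2-month controls and 10.8%, 16.2% and 21.9% in 10-month controls, a log2 difference of -0.28 (SE 0.08, permutation p = 0.00188, adjusted p = 0.0113).

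In 13 of 16 mice this second ratio was below the 2-month median. With Q20 mice alone, 8 against 8, the differences were 0.24 and -0.32 with adjusted p = 0.119 and 0.205 by exact permutation, and without the outlying libraries the second was -0.19 (adjusted p = 0.0826). The ratio of Mir124a-3 to Mir124a-1 did not differ with age in this test (log2 difference 0.08, SE 0.12, permutation p = 0.482).

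None of the 9 ratio comparisons of Q175 with controls passed by exact permutation, and 0 had an unadjusted p under 0.05. The largest difference was that of Mir124a-3 over Mir124a-1 at 10 months, where the ratio was 1.018%, 1.52% and 2.35% in controls and 0.870%, 1.26% and 1.70% in Q175, a log2 difference of -0.29 (SE 0.16, exact permutation p = 0.0797, adjusted p = 0.295). Hence the fall of Mir124a-3 in these mice was not shown to exceed that of Mir124a-1. For Mir9-3 over Mir9-2 the log2 differences were 0.13, -0.05 and -0.09 at 2, 6 and 10 months, and for the summed families -0.05, -0.12 and -0.09.

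**Figure D5:**
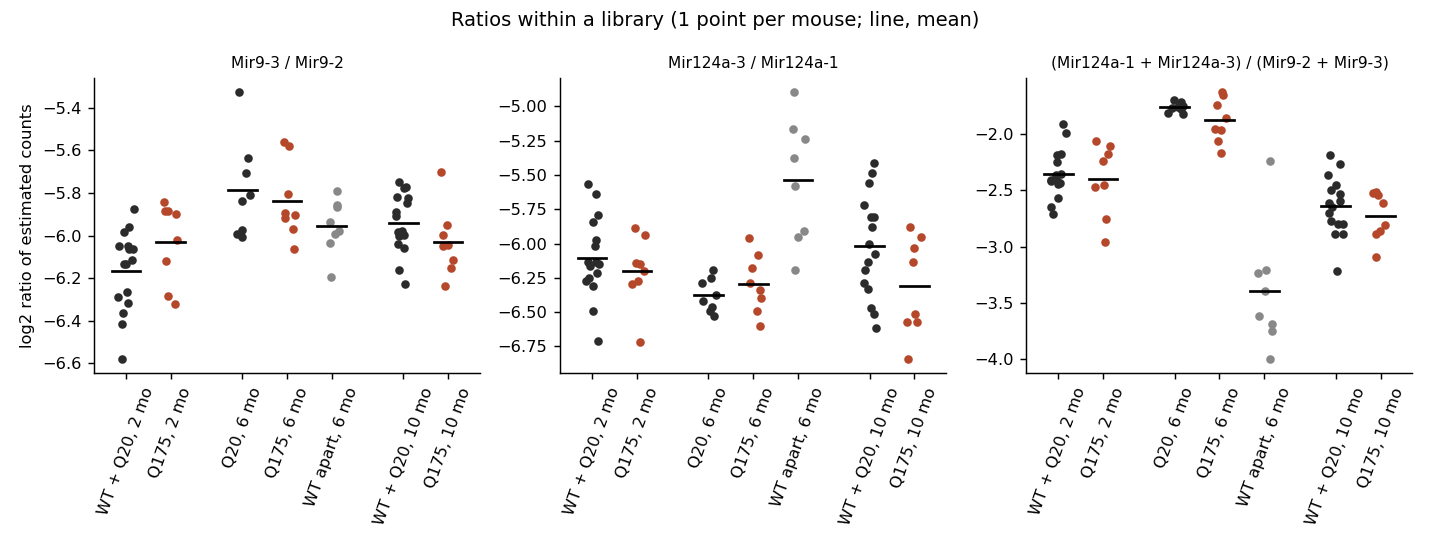
Each point is the log2 ratio of estimated counts in 1 mouse, for controls (black), Q175 mice (red) and 6-month WT mice (grey), with lines at means. Mir9-3 over Mir9-2 is higher in 10-month than in 2-month controls by 0.23 and Mir124a over Mir9 lower by 0.28, while Q175 mice overlap their controls at each age.

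At 2 and at 10 months, WT and Q20 mice of the same age differed at none of the 4 loci past FDR 0.05. The 6-month pair, which stood apart, was not tested. In 8 tests edgeR and DESeq2 called 0, 0 had an unadjusted p under 0.05, and the log2 differences ran from -0.13 to 0.06, where edgeR called 0% of all microRNAs. Between male and female mice of an age, 12 tests gave 0 calls with edgeR or DESeq2 and 0 with an unadjusted p under 0.05, with log2 differences from -0.04 to 0.15. The share of all microRNAs called by sex was 0.61%, 0% and 0.304% at 2, 6 and 10 months.

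The microRNAs whose pattern over the 20 groups was most like that of a locus were ranked by Pearson r of mean log2 CPM among 220 microRNAs with a mean of at least 10 CPM. The points share the libraries and the 6-month series, so r is a description. For Mir9-2 these were Mir23a (r = 0.963), Mir350 (0.955) and Mir30b (0.952), and for Mir9-3 Mir101b (0.862), Mir34a (0.845) and Mir93 (0.826). For Mir124a-1 they were Mir143 (0.948), Mir485 (0.942) and Mirlet7i (0.939), and over the 14 groups of 2 and 10 months alone these fell to 0.576, 0.504 and 0.441. Mir124a-3 was most like Mir222 (0.861), Mir382 (0.841) and Mir760 (0.831). Between the loci, r was 0.445 for Mir9-2 with Mir9-3 over 20 groups and 0.904 over 14, 0.768 and 0.635 for Mir124a-1 with Mir124a-3, and -0.921 and -0.688 for Mir9-2 with Mir124a-1. The Mir9 and Mir124a loci of highest level thus ran in opposite directions over groups, with a weaker correlation without the 6-month libraries. The groups differ in age and library series as well as genotype, and r within an age was not computed.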

How the data were processed

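Small RNA libraries of mouse cortex were sequenced by the authors as single 36-base reads, clipped, aligned with STAR to mm10 and counted per transcript. The deposited values are estimated counts and FPKM. A whole-read counter is named in the methods, but the counts of these loci are fractional, and the rule for dividing reads is not given in the sources used here. The submitters' processing notes name CASAVA 1.8.2. All 168 sample columns were matched to labels.

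Estimated counts were rounded and tested with the quasi-likelihood F test of edgeR 4.0.16 in R 4.3.3, with TMM factors, library sizes over all transcripts, robust dispersion and Benjamini-Hochberg adjustment at 0.05. The features were the 329 microRNAs of the study's list with a transcript, and Mir124a-1. Sex by cage was a covariate, with the library code at 6 months (V for 11 libraries, all of mutant lines). The sex of the label differed from that of the cage in 2 libraries. The meta-analysis summed Z statistics of 6 and 10 months. DESeq2 1.42.0 was an alternative. Scripts were tested on simulated data. Ratios were tested by exact permutation, or by 100000 permutations for 16 against 16 mice. The titles number mice within sex and genotype. Library totals had a median of 4810487 counts. WT and Q20 mice of 2 and 10 months shared cages. The replicate numbers of a group follow, within sex, the order of its library numbers. At 2 and 10 months, equal numbers of different genotypes thus shared lanes in part.

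Named were the 4 loci, the 3 microRNAs most like each, and at most 3 called members of each list with the smallest p. The members and lists were chosen with earlier results of these data known.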

Additional observations from a re-analysis of the deposited data

Results flagged for a closer look

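Of 84 groups of 8 libraries tested for a library apart from the rest, where chance flags about 1 in 20, 4 held one, by a gap to the nearest library above 0.526 of the group's range. Mir9-2 was at 34742.8 CPM in the Q80 female F3 at 2 months, with the other 7 libraries between 38646 and 41940 CPM. Mir124a-1 was at 7687.52 CPM in the 6-month WT female F3, with the others between 4917 and 6129 CPM, and at 7841.88 CPM in the 10-month WT male M3, with the others between 6022 and 6817 CPM. In the Q140 female F2 at 10 months Mir124a-1 was at 3514.36 CPM, with the others between 5868 and 7263 CPM. The last of these is also 1 of the 7 libraries of low connectivity.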

How the results depend on the processing

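Of the values of single loci under the alternatives, 18 lost and 12 gained a call, 22 turned sign and the others kept their direction and their side of the threshold. Of 423 counts of microRNAs past FDR 0.05, 367 stayed within 1.5 times the count reported and 56 did not, and of 45 ratio values 42 kept their call. Except where a value is given, the cause was not tested.

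Among counts, the 4 called in Q92 mice at 2 months became 0 with RLE size factors, library size alone, the expression filter of edgeR, all transcripts, all annotated microRNAs, Q20 as the only controls or the families summed, and 10 with DESeq2 or without the outlying libraries. The 4 called with CAG length at 6 months became 8 (RLE), 11 (library size alone), 10 (DESeq2), 2 (expression filter), 20 (all transcripts), 15 (annotated microRNAs), 14 (no library code), 11 (families summed), 0 (LB libraries only, or without Q175) and 163 (6-month WT among controls). The 3 in Q175 at 6 months became 10 (DESeq2, expression filter), 7 (all transcripts, annotated microRNAs), 18 (no library code) and 0 (6-month WT among controls, which also took the 1 of Q92 to 0). With DESeq2, Q92 at 6 months had 3, Q140 at 6 months 5, Q80 at 2 months 2, and Q140 at 2 months, Q140 and Q111 at 10 months and the sexes at 6 months 1 each. Q140 at 10 months also had 1 with library size alone or the expression filter. Q80 and Q111 at 6 months and the sexes at 6 months had 1 with all transcripts or annotated microRNAs, the sexes at 10 months 3 and 2, and 2 by the sex of the label. The families summed gave 1 for the sexes at 6 months, and sex with lane gave 2 for Q111 at 10 months. At 10 months the 27 with CAG length became 41 with Q20 as the only controls and 1 without Q175. The 38 of the meta-analysis became 108 with the 6-month WT libraries and 3 without Q175. For age by CAG length the 4 became 8 (library size alone), 12 (without outlying libraries) and 0 (without Q175).

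The values that turned sign were small, except with the 6-month WT libraries and, for Mir124a-3 with CAG length, without Q175. With the 6-month WT libraries Mir124a-1 rose with CAG length at 6 months (0.24, adjusted p from edgeR = 0.00304), was higher in Q175 (0.29) and had a Z of 0.71. Mir124a-3 in Q92 at 2 months (0.01) turned to -0.0157 with library size alone, -0.0108 with the expression filter, -0.0101 with all transcripts, -0.0171 with annotated microRNAs and -0.0207 without outlying libraries. Mir9-2 in Q175 at 6 months turned to 0.0133 with library size alone, 0.00113 with the expression filter and 0.00390 with no library code. For CAG length at 2 months Mir124a-1 turned to -0.000755 with library size alone, -0.000450 with the expression filter and -0.0197 without Q175, and Mir124a-3 to 0.0105 with sex and lane and 0.0712 without Q175. At 6 months Mir124a-3 turned to 0.00545 with library size alone, 0.0133 with no library code, 0.0288 in LB libraries and 0.125 without Q175. Mir9-2 turned to -0.00384 for age in Q80 with library size alone and to 0.00423 for age by CAG length without outlying libraries.

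The ratio of Mir9-3 to Mir9-2 by age lost its call with Q20 as the only controls (0.24), and that of the families with Q20 alone (-0.32) and without outlying libraries (-0.19). Mice with the same replicate number did not deviate together (median r -0.107, -0.109 and 0.0415 at 2, 6 and 10 months), and the numbers were not taken as pairs. With the replicate number as a block in place of sex, 7 microRNAs passed in Q175 at 6 months and 15 with CAG length at 6 months, and Mir124a-1 in Q92 at 2 months (-0.24), Mir9-3 by age in Q92 (0.16) and Mir124a-3 by age in Q175 (-0.33) gained a call.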
